A study of Mus musculus with 27 samples.

Results

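Lhx2, Nfatc1, Foxc1, Tbx1, Barx2, Runx1 and Trp63 are 7 transcription factor genes that have been tied to the stem cells of the mouse hair follicle or, for Trp63, to the basal cells of all stratified epithelia. They were taken by their symbols, as 7 of 51906 symbols in a table of RNA-seq counts and as 7 of 32285 genes in single cell matrices. Hair follicle stem cells (HFSCs) sit in the bulge of the follicle, alternate between rest (telogen) and hair growth (anagen), and lose parts of their identity when grown in serum. The RNA-seq libraries came from 3D cultures of HFSCs sorted from telogen back skin of mice at postnatal day 55. Cultures were wild-type or labelled Rxra cKO (Sox9-CreER;Rxra-fl/fl;R26-YFP), and each was grown either in FBS, a serum-replete medium, or in atRA+PKCi, giving 4 groups of 2 libraries. The atRA+PKCi medium held all-trans retinoic acid and the protein kinase C inhibitor Go6976 in serum-free medium with the supplement B-27, so the comparison of media covered the removal of serum as well as both compounds. All lines had been set up on inactivated feeder cells, and in the cKO the Cre was driven by Sox9, which marks HFSCs. Single cells came from back skin in late anagen (AnaVI) of 2 mice at postnatal day 32, and from 3D cultures of HFSCs of the same 2 mice in up to 7 media that had been pooled with hashtag antibodies.

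Lhx2 encodes a LIM homeodomain factor, Barx2 another homeobox factor, Tbx1 a T-box factor and Foxc1 a forkhead factor. Lhx2, Tbx1 and Foxc1 are known to maintain HFSCs or hold them at rest, and Nfatc1, which calcineurin brings to the nucleus, is known for keeping bulge cells quiescent. Runx1, a DNA-binding partner of Cbfb, is known for moving HFSCs into the hair cycle, and Trp63 encodes p63, which sustains the basal state and controls keratins and adhesion genes. Retinoic acid acts through heterodimers of RAR with RXR, and Rxra encodes one of the RXR proteins.

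On GRCm38, with the annotation of GENCODE M21, Lhx2 (ENSMUSG00000000247) lies at chr2:38339281-38369733 on the plus strand, and Foxc1 (ENSMUSG00000050295) at chr13:31806633-31812476 on the plus strand. Barx2 (ENSMUSG00000032033) lies at chr9:31846044-31913462 on the minus strand. Chromosome 16 holds Tbx1 (ENSMUSG00000009097, chr16:18580979-18590671, minus strand), Trp63 (ENSMUSG00000022510, chr16:25683763-25892102, plus strand) and Runx1 (ENSMUSG00000022952, chr16:92601466-92826149, minus strand). Exons of Runx1 overlapped those of the antisense gene Gm26626 by 106 bases, and the handling of strand in quantification is not given in the sources used here, so that reads there cannot be told apart. No exons of the other 6 genes overlapped those of another gene.

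RefSeq promoters (GRCm38.p6, 250 bases before to 50 after a transcription start) were listed for Lhx2 (2), Foxc1 (1), Tbx1 (2) and Runx1 (2), and not for Nfatc1, Barx2 and Trp63. They were searched on both strands for AGGTCA (the half-site of nuclear receptors such as RXR), ACAAT (a SOX core), TGTGGT (a RUNX core) and CCAAT (an NFY core), none of which holds another. Over all 32851 promoters of 300 bases, 16.3% held AGGTCA, 31.0% ACAAT, 16.8% TGTGGT and 37.4% CCAAT. None of the 7 promoters held AGGTCA or ACAAT in this window. The 250 bases upstream of the Foxc1 and Runx1 starts are shown since these are the members with a listed promoter whose level changed with medium. They read 5′ to 3′ on the strand of the gene, and capitals mark TGTGGT and CCAAT or its reverse complement.
Foxc1, chr13:31806396-31806645 (plus strand): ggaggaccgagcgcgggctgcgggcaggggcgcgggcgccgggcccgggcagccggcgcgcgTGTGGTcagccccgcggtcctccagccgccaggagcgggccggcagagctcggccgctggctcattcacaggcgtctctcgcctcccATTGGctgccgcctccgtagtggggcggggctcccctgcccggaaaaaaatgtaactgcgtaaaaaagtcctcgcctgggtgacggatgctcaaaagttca
Runx1, upstream start, chr16:92826075-92826324 (minus strand): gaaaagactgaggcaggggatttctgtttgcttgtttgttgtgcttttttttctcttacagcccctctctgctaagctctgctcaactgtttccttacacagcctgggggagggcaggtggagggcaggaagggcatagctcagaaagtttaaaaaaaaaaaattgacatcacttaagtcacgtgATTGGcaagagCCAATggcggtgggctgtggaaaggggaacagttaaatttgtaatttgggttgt
Runx1, inner start, chr16:92697330-92697579 (minus strand): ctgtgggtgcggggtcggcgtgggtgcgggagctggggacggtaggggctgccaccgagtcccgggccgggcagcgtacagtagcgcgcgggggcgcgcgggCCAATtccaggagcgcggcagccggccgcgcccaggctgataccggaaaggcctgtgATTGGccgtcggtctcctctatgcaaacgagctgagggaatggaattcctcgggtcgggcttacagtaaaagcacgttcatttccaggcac
In Foxc1, TGTGGT stood from -188 to -183 and the reverse complement of CCAAT from -101 to -97, counted from 0 at the first transcribed base. Past the stretches shown, Foxc1 held CCAAT from 9 to 13, and the upstream Runx1 promoter held the reverse complement of TGTGGT from 28 to 33 and from 36 to 41. These matches describe the letters and are not evidence of binding.

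The 8 RNA-seq libraries held between 25150300 and 35879800 estimated counts each, and the 7 genes together took 0.046% to 0.0682% of them. Levels are given as CPM after TMM scaling (a gene's count over 1e6 counts of the scaled library), for replicates 1 and 2 in that order. A gene was called when the edgeR quasi-likelihood test, fitted to 15965 genes in all 8 libraries, gave an adjusted p under 0.05. The replicates are cultures of separate mice, so p-values measure the spread between these cultures only. In bulk samples, fewer cells of a type and less RNA per cell cannot be told apart.

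Rxra itself was read first, as a check of the genotype. It stood at 149 and 122 CPM in FBS against 147 and 143 in atRA+PKCi in wild-type cultures, and 97.2 and 95.7 in FBS against 148 and 145 in atRA+PKCi in Rxra cKO cultures. The libraries labelled Rxra cKO were below wild-type in FBS (-0.49 as log2 fold change, adjusted p = 0.00264, standard error 0.092) and overlapped with wild-type in atRA+PKCi (0.01, adjusted p = 0.927). Counts were summed over all exons, so that this level does not check the floxed stretch, and directions by genotype in atRA+PKCi rest on the labels.

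**Figure D1:**
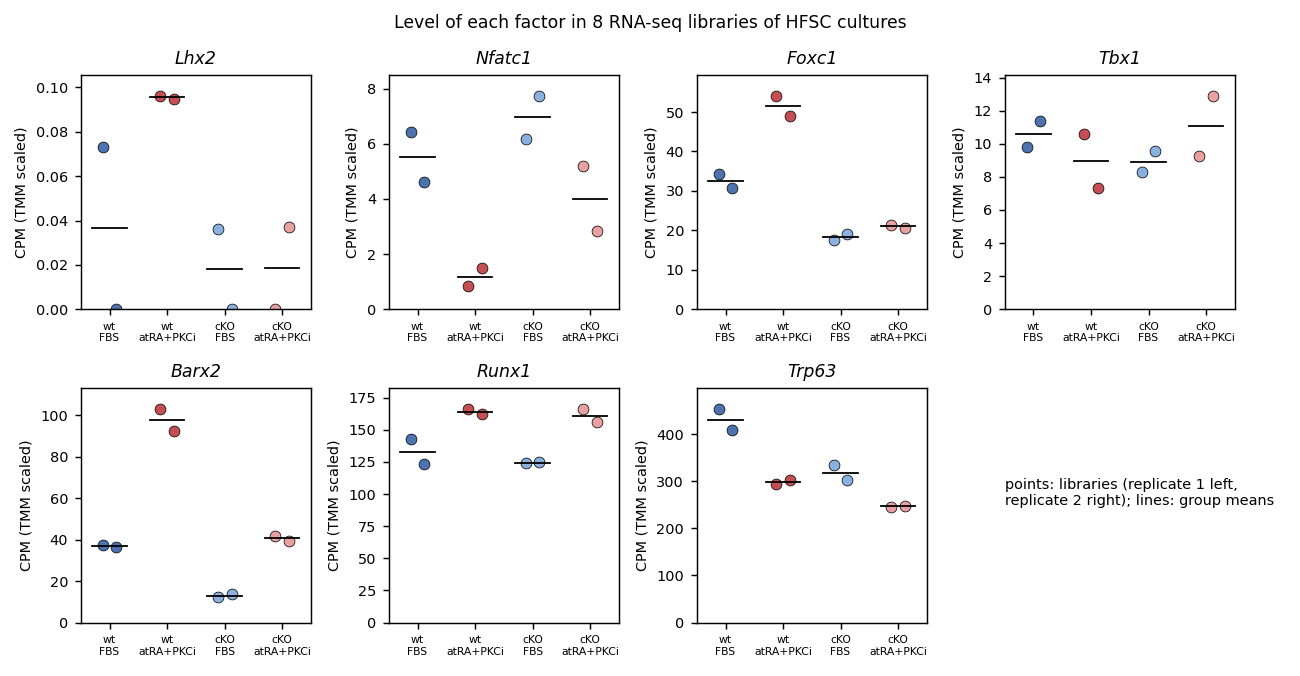
Level of each of the 7 factors in CPM (TMM scaled, linear axes from 0) in the 8 RNA-seq libraries; points are libraries and lines the means of the 2 libraries of a group (wt, wild-type; cKO, labelled Rxra cKO). Barx2 and Foxc1 are highest in both wild-type atRA+PKCi libraries, Nfatc1 is lowest there, Trp63 is highest in wild-type FBS, and Lhx2 is near 0 throughout.

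Of the homeobox members, Lhx2 was close to absent from the cultures and Barx2 moved in all 4 comparisons of groups. Lhx2 was counted with 2 and 0 reads in FBS against 3 and 3 in atRA+PKCi in wild-type cultures, and 1 and 0 in FBS against 0 and 1 in atRA+PKCi in Rxra cKO cultures. It was the only member to miss the filter on low counts, and no fold is given since every library was at or under 3 counts. Barx2 stood at 37.6 and 36.4 CPM in FBS and at 103 and 92.4 CPM in atRA+PKCi in wild-type. In the cKO it stood at 12.4 and 13.7 CPM in FBS and at 41.8 and 39.5 CPM in atRA+PKCi. Both cKO FBS libraries were thus below all others, both wild-type atRA+PKCi libraries were above all others, and the cKO in atRA+PKCi was close to wild-type in FBS. With atRA+PKCi, Barx2 rose in wild-type by a log2 fold change of 1.41 (adjusted p = 1.63e-06, standard error 0.083) and in the cKO by 1.64 (2.36e-06, 0.089). It was lower in the cKO, with log2 fold changes of -1.5 in FBS (5.47e-06, 0.09) and -1.27 in atRA+PKCi (6.02e-06, 0.082). The change with medium in wild-type less that in the cKO, the interaction, was -0.23 (95% interval -0.57 to 0.1) and did not pass (adjusted p = 0.199).

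Foxc1 rose with atRA+PKCi in wild-type, stood lower in the cKO in either medium, and was the only member with a called interaction. Its levels were 34.3 and 30.7 CPM in FBS against 54.1 and 48.9 in atRA+PKCi in wild-type cultures, and 17.5 and 19.2 in FBS against 21.3 and 20.7 in atRA+PKCi in Rxra cKO cultures. No group overlapped with another. The rise was 0.66 in wild-type (standard error 0.089, adjusted p = 0.000267), and in the cKO the difference was 0.2 (0.093, 0.121), which did not pass. Foxc1 was lower in the cKO, with log2 fold changes of -0.82 in FBS (adjusted p = 0.000161) and -1.29 in atRA+PKCi (9.25e-06). The interaction of 0.47 (standard error 0.13, adjusted p = 0.0296) was lost with DESeq2 (adjusted p = 0.0888). Leaving out a library, it passed without replicate 1 of wild-type FBS or replicate 2 of wild-type atRA+PKCi, and did not pass without any one of the other 6 (0.35 to 0.48, adjusted p from 0.0546 to 0.131).

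Nfatc1 was the one member that fell sharply in wild-type atRA+PKCi. It stood at 6.42 and 4.6 CPM in FBS against 0.834 and 1.49 in atRA+PKCi in wild-type cultures, and 6.19 and 7.74 in FBS against 5.19 and 2.83 in atRA+PKCi in Rxra cKO cultures. The wild-type atRA+PKCi libraries were below all 6 others. In wild-type, Nfatc1 fell by 2.24 on the log2 scale (standard error 0.37, adjusted p = 0.000916), and the cKO was 1.8 higher than wild-type in atRA+PKCi (0.37, 0.00421). In FBS the genotypes differed by 0.34 (95% interval -0.57 to 1.24, adjusted p = 0.444). The difference between media in the cKO, -0.78 (adjusted p = 0.0852), and the interaction, -1.46 (0.0616), did not pass. Both passed without a filter on low counts (adjusted p = 0.00206 and 0.000119), the interaction also with DESeq2 (0.0337) and without replicate 2 of wild-type FBS (0.0457), of wild-type atRA+PKCi (0.0435) or of Rxra cKO atRA+PKCi (0.034), and the difference in the cKO also without Rxra cKO atRA+PKCi replicate 1 (-1.28, adjusted p = 0.0369).

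Tbx1 passed none of the tests. It stood at 9.78 and 11.4 CPM in FBS against 10.6 and 7.35 in atRA+PKCi in wild-type cultures, and 8.27 and 9.55 in FBS against 9.24 and 12.9 in atRA+PKCi in Rxra cKO cultures, with overlap between most groups. The difference between media was -0.24 in wild-type (95% interval -0.83 to 0.35) and 0.3 in the cKO (-0.28 to 0.89).

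Runx1 rose with atRA+PKCi in both genotypes. It stood at 143 and 123 CPM in FBS against 166 and 162 in atRA+PKCi in wild-type cultures, and 124 and 125 in FBS against 166 and 156 in atRA+PKCi in Rxra cKO cultures. Every library in atRA+PKCi was above every library in FBS. The rise was 0.31 in wild-type (standard error 0.081, adjusted p = 0.0118) and 0.37 in the cKO (0.081, 0.00607). That in wild-type was lost without replicate 2 of wild-type FBS (adjusted p = 0.0502) or replicate 1 of wild-type atRA+PKCi (0.0708). The genotypes differed by -0.09 in FBS and -0.03 in atRA+PKCi, neither of which passed.

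Trp63 moved the other way. It stood at 453 and 408 CPM in FBS against 295 and 303 in atRA+PKCi in wild-type cultures, and 334 and 303 in FBS against 246 and 248 in atRA+PKCi in Rxra cKO cultures. The wild-type FBS libraries were above all others and the cKO atRA+PKCi libraries below all others. With atRA+PKCi, Trp63 fell by 0.53 as log2 fold change in wild-type (standard error 0.079, adjusted p = 0.000548) and fell by 0.37 in the cKO (0.079, 0.00582). It was lower in the cKO, with log2 fold changes of -0.44 in FBS (adjusted p = 0.00236) and -0.28 in atRA+PKCi (0.0216). The call in atRA+PKCi was lost without any one of the 4 libraries it compares (-0.24 to -0.28, adjusted p from 0.0907 to 0.154), and the call between media in the cKO without Rxra cKO atRA+PKCi replicate 1 (0.0614).

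**Figure D2:**
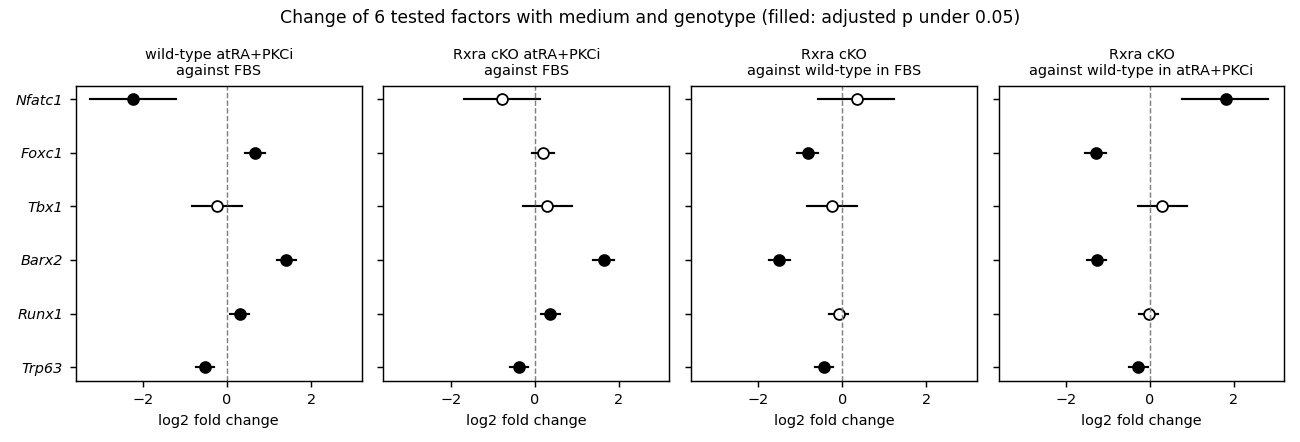
Change of the 6 tested factors in 4 comparisons of RNA-seq groups. The x axis is the edgeR log2 fold change, points are estimates, bars are 95% intervals on 4 residual degrees of freedom, and filled points passed an adjusted p of 0.05; Barx2 and Trp63 are filled in all 4 panels and Tbx1 in none.

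Counted over the 6 tested members, 3 rose and 2 fell with atRA+PKCi in wild-type, where 53.9% of all tested genes were called (27.2% higher and 26.6% lower). In the cKO 2 rose and 1 fell with medium, against a background of 43.0% (20.8% higher, 22.2% lower). In FBS 0 members were higher and 3 lower in the cKO, against 42.8% (22.3% higher, 20.5% lower), and in atRA+PKCi 1 was higher and 3 lower, against 43.2% (23.0% higher, 20.2% lower). The interaction was called for 1 member as higher and for 0 as lower, against 24.6% (11.3% higher, 13.3% lower). With 6 members tested, these counts are not read as setting the members apart from other genes. The median log2 change of the tested members was 0.03, 0.25, -0.34, -0.15 and -0.2 in these 5 comparisons in turn, beside 0.03, 0.02, 0.02, 0 and 0.01 over all tested genes. The 4 comparisons of groups share libraries, so their members' values are not independent.

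Set per kilobase of exon, the order of the members changed with medium. In wild-type FBS the mean level was 51.3 CPM per kilobase for Trp63, then 18.8 for Barx2, 11 for Runx1, 5.56 for Foxc1, 3.02 for Tbx1 and 0.738 for Nfatc1. In wild-type atRA+PKCi Barx2 came first at 49.7 CPM per kilobase, above Trp63 at 35.6. In Rxra cKO FBS Barx2 stood at 6.63 CPM per kilobase, below Trp63 at 37.9 and Runx1 at 10.4, and in Rxra cKO atRA+PKCi it stood at 20.7, below Trp63 at 29.4 and above Runx1 at 13.4. Foxc1 (3.6) and Tbx1 (3.15) in Rxra cKO atRA+PKCi were the only neighbours in the order whose libraries overlapped, among the members above Lhx2.

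Relatives and partners of the members were read from a list of 22 genes, of which 17 were tested. With atRA+PKCi 7 rose and 4 fell in wild-type, and 5 rose and 2 fell in the cKO. Over all tested genes 27.2% rose and 26.6% fell in wild-type, and 20.8% rose and 22.2% fell in the cKO. These shares are the background for the lists that follow as well. Among runt-domain genes, Runx2 rose in wild-type by 1.5 (log2), with an interaction of 1.31. Among genes of the calcineurin pathway that controls Nfatc1, Rcan1, an inhibitor of calcineurin, fell by 1.48 (interaction -1.03) and Nfatc2 fell by 0.85. The catalytic subunit Ppp3ca rose by 0.62 and Nfatc3 rose by 0.37, both named after their values were seen, and Nfat5, a relative that calcineurin does not control, rose by 0.72 (interaction 0.99). Trp73, a relative of Trp63, rose by 0.64. The T-box repressor Tbx3 fell by 2.54 near the floor, from 0.39 ± 0.223 to 0.0636 ± 0.0445 CPM (SD, n = 2). Foxc2, a close relative of Foxc1, differed by -0.08 in wild-type, which was not called, and had an interaction of 2.48. Ppp3cb, a catalytic subunit of calcineurin, had an interaction of 0.4. The list's median was 0.2 in wild-type and -0.13 in the cKO, and with genotype 0.04 in FBS and -0.14 in atRA+PKCi.

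Of 21 other genes of HFSCs 19 were tested, and with atRA+PKCi 11 rose and 6 fell in wild-type, with a median of 0.8, while 8 rose and 5 fell in the cKO, with a median of 0.32. Krt15, the bulge keratin, rose by 10.07 in wild-type, from 4.2 ± 0.779 to 4500 ± 103 CPM (SD, n = 2), and in the cKO from 7.37 ± 1.21 to 248 ± 4.18 CPM. Lgr6, an R-spondin receptor, rose by 3.18, and Sfrp1, a secreted Wnt inhibitor, rose by 2.96. Genes tied to the resting bulge also fell in wild-type: Bmp6 fell by 3.29, Fgf18 fell by 3.1 and Postn, a matrix protein, fell by 2.33. Levels were low for Fgf18 (2.36 ± 0.493 to 0.271 ± 0.0202 CPM) and Postn (0.977 ± 0.0392 to 0.191 ± 0.00167). The list moved both ways in wild-type atRA+PKCi, and so did the members.

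The list of 13 basal genes that p63 is known to control was tested whole, and 2 rose and 8 fell in wild-type with atRA+PKCi, with a median of -0.4. In the cKO 6 rose and 6 fell (median -0.1). Krt14, a basal keratin, fell by 1.87 in wild-type from 21400 ± 1290 to 5850 ± 179 CPM (SD, n = 2), and Perp, a desmosome gene, fell by 1.68. Igfbp3, which binds insulin-like growth factors, rose by 1.07 and the receptor gene Fgfr2 by 0.28. Between genotypes 12 of 13 were lower and 0 higher in the cKO in FBS, against 20.5% and 22.3% of all tested genes. In atRA+PKCi 7 were higher and 5 lower, against 23.0% and 20.2%. Trp63 was lower in the cKO in both media.

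Markers of other states moved with the groups. All 6 genes of epidermal differentiation (Krt1, Krt10, Krtdap, Sbsn, Lor and Dmkn) fell in wild-type atRA+PKCi (median -4.69), furthest Krtdap by 9.9, Lor by 6.3 and Krt1 by 4.91, and all 6 were lower in the cKO in FBS and higher in the cKO in atRA+PKCi. In the cKO 2 of them rose and 4 fell with atRA+PKCi. In wild-type atRA+PKCi levels were low for Krt1 (0.336 ± 0.386 CPM), Lor (0.749 ± 0.0611) and Krtdap (0.892 ± 0.127; SD, n = 2). The summed level of 5 proliferation genes, most abundant among them Mki67 in wild-type atRA+PKCi and Top2a in the other groups, was 598 and 553 CPM in FBS against 533 and 498 in atRA+PKCi in wild-type cultures, and 657 and 600 in FBS against 270 and 278 in atRA+PKCi in Rxra cKO cultures. All 5 fell with atRA+PKCi in the cKO, and 2 fell in wild-type, Cdk1 by 0.58 and Ccnb1 by 0.27. The 6 fibroblast or feeder markers summed to between 1.32 and 11.6 CPM, with Pdgfra or Col1a1 most abundant and 1 or 2 of the 6 at 0 counts in each library. Of the 5 tested, 0 rose and 2 fell in wild-type: Pdgfra fell by 2.91, from 5.44 and 4.91 to 0.706 and 0.665 CPM, and Dcn fell from 17 and 10 counts to 1 and 0. In the cKO 0 rose and 1 fell, Pdgfra, by 1.66. Endothelial markers, led by Pecam1 in every library but wild-type atRA+PKCi replicate 2, where Egfl7 led, summed to 1.83 to 5.26 CPM, with 1 to 3 of 5 at 0 counts and with 0 of 3 tested higher and 1 lower in each genotype. These were Pecam1 in wild-type, which fell by 1.13, and Kdr in the cKO, which fell from 14 and 27 counts to 2 and 0. Immune markers, led by Cd74, Ptprc or Fcer1g, summed to 0.146 to 1.86 CPM with 1 to 4 of 5 at 0 counts. Cd74, the one tested, rose with atRA+PKCi in both genotypes, from 0 counts in both wild-type FBS libraries to 0.192 and 0.222 CPM, and from 0.144 and 0.259 to 1.75 and 1.56 CPM in the cKO. The part of these cells and states in the members' changes was not tested.

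In the skin of 2 mice, the median barcode held 8087 and 9499 UMIs (16521 and 16068 barcodes), and 13597 and 13441 cells were kept. The libraries shared 62 barcodes, 0.386% of the smaller. Cells had been sorted as CD45-CD31-CD140a-CD117-, yet 11003 of the 27038 kept cells (40.7%) were fibroblast-like, 680 immune-like and 211 endothelial-like. Clusters were named from marker lists where the data allowed it, giving 14 classes, and 3535 cells in 7 clusters stayed unnamed. No bulge class was found, and 2784 cells (10.3%) in 3 clusters were outer root sheath-like. The 5 outer root sheath markers summed to 8430 and 5920 CPM there in mice 1 and 2, with Krt17 most abundant and none at 0, and to 9340 and 8990 CPM, with Krt14 most abundant, in the 601 suprabasal epidermis-like cells. The 7 bulge or upper follicle markers also stood higher in the latter, at 14600 and 9000 CPM with Cst6 most abundant, than in outer root sheath-like cells, at 4350 and 3500 CPM with Krt15 most abundant. Clustering used variable genes measured in the same cells, so that levels by class are a description without a test, and Barx2 and Tbx1 were among the genes that led some clusters.

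Lhx2, Tbx1, Barx2 and Trp63 were highest in outer root sheath-like cells, as the plot by class shows. Lhx2 stood at 128 CPM in both mice there, above inner root sheath-like cells at 50.9 and 61.8 CPM and hair matrix-like cells at 36.4 and 54.8, whose ranges overlapped each other. Tbx1 stood at 210 and 213 CPM, with melanocyte-like cells next at 58.1 and 51. Barx2 stood at 377 and 402 CPM, with suprabasal epidermis-like cells next at 227 and 249. For these 3 genes the mice of the first class and of the next did not overlap. The levels depended on the clustering, since at resolution 1.0, where 772 cells took the outer root sheath-like name, the level over both mice was 760 CPM for Barx2 in place of 390, 137 for Tbx1 in place of 212, and 3.75 for Nfatc1 in place of 7.14. Trp63 stood at 909 and 1240 CPM in outer root sheath-like cells and overlapped with hair matrix-like cells at 782 and 989 and with medulla-like cells at 772 and 975.

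The other 3 members led elsewhere. Runx1, which is also known for its role in blood cells, was highest in immune-like cells (466 and 551 CPM), then in cells like the hair shaft cortex or cuticle (262 and 355), in medulla-like cells (222 and 296) and in outer root sheath-like cells (169 and 226), the last 3 of which overlapped in turn. Nfatc1 was highest in endothelial-like cells (59.2 and 90.5 CPM) and immune-like cells (53.1 and 55.5). It stood at 37.7 and 26.5 CPM in suprabasal epidermis-like cells and at 7.92 and 6.36 CPM in outer root sheath-like cells. Foxc1 was highest in suprabasal epidermis-like cells, at 63.5 and 40.9 CPM, and at 4.86 and 3.14 CPM in outer root sheath-like cells. The leading genes of the suprabasal epidermis-like cluster included Cst6 and Krt79, which mark the upper follicle, beside Krt77, Krt1, Krtdap and Krt10. Counted by class, 5 of 7 members were highest in one of the 6 classes of keratinocytes among 14, as were 34.7% of the 16614 genes with at least 100 UMIs. With 7 members, this count is not read as setting them apart.

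**Figure D3:**
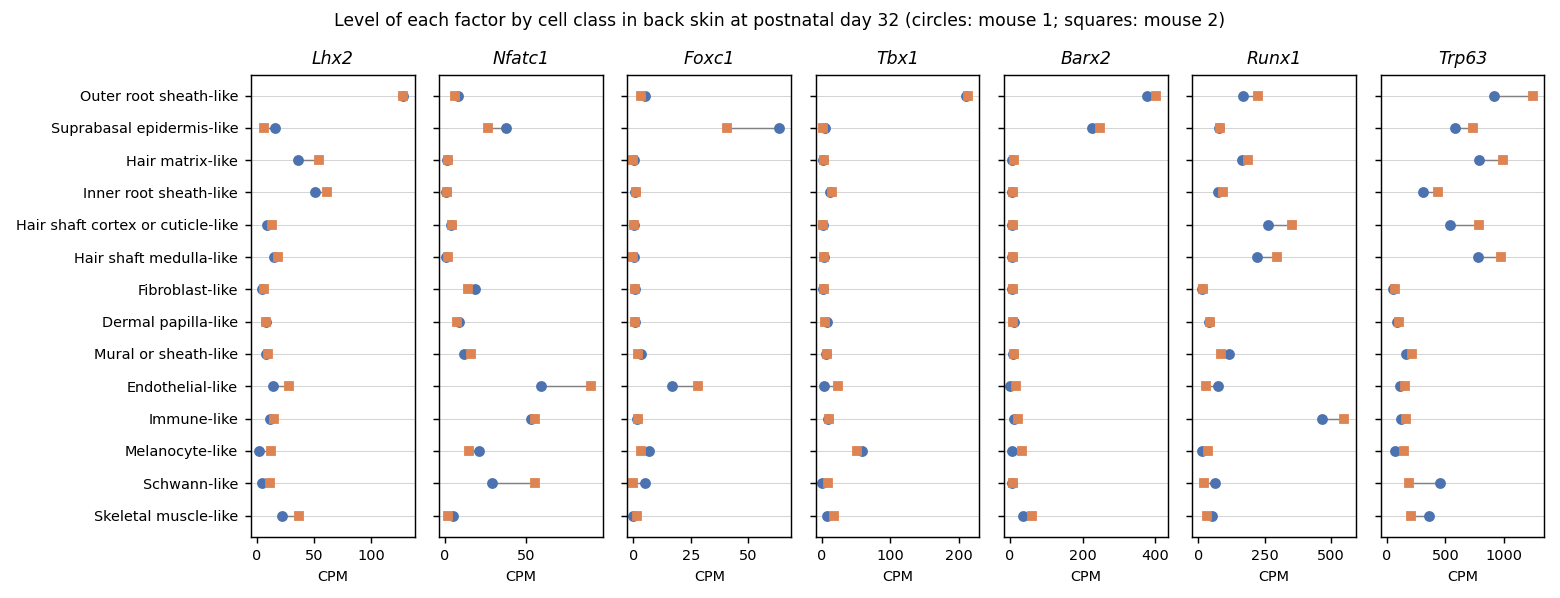
Level of each factor in CPM (linear axes) by cell class in back skin, with a circle for mouse 1 and a square for mouse 2. Lhx2, Tbx1, Barx2 and Trp63 reach their highest values in outer root sheath-like cells, Foxc1 in suprabasal epidermis-like cells, Nfatc1 in endothelial-like cells and Runx1 in immune-like cells.

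Free RNA, which was not measured here, may set a floor for such levels. In fibroblast-like cells, which should lack p63, Trp63 stood at 54.1 and 71.7 CPM with a UMI in 34.9% and 50.1% of cells. Levels of Trp63 near these are read as background. This was the lowest of the 14 classes, and Trp63 stood at 453 and 188 CPM in Schwann-like and 360 and 209 in skeletal muscle-like cells. Fibroblast-like cells held Lhx2 at 5.01 and 6.65 CPM, Tbx1 at 2.37 and 4, Barx2 at 4.53 and 8.1, and Runx1 at 14 and 17.3. Skeletal muscle-like cells held Lhx2 at 22.5 and 37.3 CPM and Barx2 at 35 and 59.4, so background may stand higher in other classes. With every cell thinned to 3000 UMIs, Lhx2 was found in 30.1% and 28.9% of outer root sheath-like cells against 1.34% and 2.12% of fibroblast-like cells, and Barx2 in 53.1% and 52.3% against 1.4% and 1.95%. Thinned shares of outer root sheath-like cells were 42.4% and 43.0% for Tbx1, 36.6% and 45.9% for Runx1, and 85.1% and 90.8% for Trp63. Nfatc1 (1.51% and 1.47%) and Foxc1 (1.09% and 1.27%) were found in few, and the share for Nfatc1 was below that in fibroblast-like cells (4.33% and 3.64%). Inner root sheath-like cells held Nfatc1 in 0.165% and 0.454% of cells, so fibroblast-like cells do not set its background. Without thinning, the shares of outer root sheath-like cells with a UMI were 52.9% and 59.2% for Lhx2, 66.6% and 66.7% for Barx2, and 66.6% and 70.0% for Tbx1. Thinning left out 66 and 32 outer root sheath-like cells and 213 and 205 fibroblast-like cells under this depth.

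Several members were found in the same cells. After thinning, 48.2% and 54.7% of outer root sheath-like cells held UMIs of 3 or more members, against 18.5% and 18.6% of suprabasal epidermis-like cells and 0.224% and 0.383% of fibroblast-like cells. Without thinning these shares were 83.8% and 88.6% in outer root sheath-like cells. UMIs of 5 or more members were found, without thinning, in 593 of 2784 outer root sheath-like cells and in 39 of 601 suprabasal epidermis-like cells. Members found often one by one will also meet in the same cells. The shares expected from this were not computed, so these counts do not show that the members go together.

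The 3 outer root sheath-like clusters held the members in different proportions. Cluster 15 (1532 cells, led by Kcnb2, Scrg1 and Edn2) held Barx2 at a mean of 486 CPM over the mice and Tbx1 at 248. Cluster 16 (793 cells, led by Grm7, Lgr5, Slc39a10 and Fgf5) held Barx2 at 9.88 to 15.4 CPM. This was above fibroblast-like cells (4.53 and 8.1) but overlapped with immune-like cells (10.9 and 23.5), so it cannot be told apart from background. Lhx2 stood at 152 CPM in cluster 16, Tbx1 at 194, Runx1 at 222 and Trp63 at 1120. Cluster 19 (459 cells, led by Pthlh, Krt6a and Krt14) held the most Barx2, 848 CPM, with the least Tbx1 (124) and Runx1 (98.2) of the 3. Nfatc1 reached 12.1 CPM in cluster 15, and 1.33 and 2.52 CPM in clusters 16 and 19. Among the unnamed clusters, a cycling one of 1887 cells led by Cfd, Mycl, Stmn1 and Lgr6 held Lhx2 at 114 CPM, beside 128 in outer root sheath-like cells, and Tbx1 at 12.9 and Barx2 at 7.96 CPM.

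**Figure D4:**
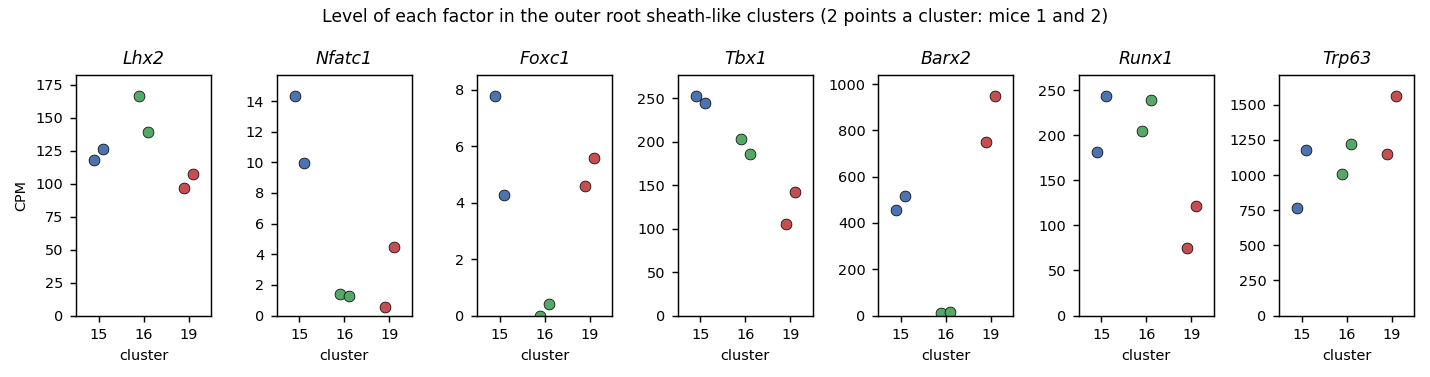
Level of each factor in CPM (linear axes from 0) in the 3 outer root sheath-like clusters, with 1 point per mouse. Barx2 lies at 9.88 to 15.4 CPM in cluster 16 and at 457 to 947 CPM in clusters 15 and 19, while Lhx2, Tbx1 and Trp63 are present in all 3.

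Across the 32 clusters, on log2 of the mean CPM plus 5, Lhx2 followed Trp63 (Pearson r = 0.77) and Tbx1 (0.75) among the members, Barx2 followed Tbx1 (0.57) and Foxc1 (0.56), and Nfatc1 had no r above 0.19. The clusters share 2 libraries and may share free RNA, and these values are descriptions. Of all genes with at least 500 UMIs, Gjb2 (0.937), Slc16a7 (0.91) and Foxe1 (0.902) were most like Lhx2, and Kcnk2 (0.896), Cyp2s1 (0.883) and Zdhhc19 (0.88) most like Tbx1. For Barx2 they were BC016579 (0.851), AC106834.1 (0.838) and Eppk1 (0.821), and for Trp63 Fat2 (0.952), Trim29 (0.941) and Sfn (0.938). Runx1 was closest to Rps6ka1 (0.884), Sorl1 (0.88) and Stxbp2 (0.833), Nfatc1 to Adgre5 (0.786), Ifngr1 (0.785) and Ripk1 (0.772), and Foxc1 to Sik1 (0.749), Pdzk1ip1 (0.738) and Spink5 (0.729).

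The pooled 3D cultures gave 222 and 78 singly tagged cells from 449 and 208 barcodes of mice 1 and 2. All media but FBS and B-27 also held atRA+PKCi, and R-spondin (Rspo), BMP2 with BMP4 (BMP2/4) or an inhibitor of RAR (RARi) were added to it. B-27 gave 5 and 10 cells, atRA+PKCi 2 and 1, Rspo 5 and 6, BMP2/4 113 and 13, Rspo+BMP2/4 92 and 27, and Rspo+BMP2/4+RARi 5 and 21, and no FBS cell was kept. UMIs were summed per mouse and medium. Over all media, Lhx2 was found with 2 UMIs in 1 cell of mouse 1 and with 0 in 78 cells of mouse 2, which allows a share of up to 3.85% of cells with a UMI and sets no limit on cells expressing the gene. Nfatc1 stood at 3.53 and 0.448 CPM, Foxc1 at 14.9 and 13.4, Tbx1 at 20.7 and 25.1, Barx2 at 25.7 and 40.3, Runx1 at 487 and 550, and Trp63 at 145 and 201. Most of these cells came from media with BMP2/4, so the pooled levels mainly describe those. Side by side with the outer root sheath-like cells of the same skin, made as separate libraries and not tested, Lhx2, Nfatc1, Tbx1, Barx2 and Trp63 were lower in both culture libraries, and Runx1 and Foxc1 higher. By medium, Runx1 in Rspo (204 and 234 CPM) overlapped with outer root sheath-like cells (169 and 226). In B-27, Barx2 (101 and 178) and Trp63 (704 and 469) were still below them (377 and 402, 909 and 1240). For Nfatc1 the lower level in culture is not read, since the cultures held 24 UMIs in mouse 1 and 1 in mouse 2. Its level in outer root sheath-like cells (7.92 and 6.36 CPM) was below fibroblast-like cells (18.3 and 14). It was above inner root sheath-like cells (0.625 and 0.924).

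Barx2 and Trp63 stood higher in B-27 than in BMP2/4 in both mice. Barx2 stood at 101 and 178 CPM in B-27 (exact Poisson 95% intervals 60.5 to 157 and 126 to 243, which cover counting error only), at 51.1 and 34.4 in Rspo, at 19.2 and 25.4 in BMP2/4, at 26.1 and 19.7 in Rspo+BMP2/4, and at 83.2 and 28.2 with RARi. The B-27 cultures of both mice were above every other culture. Trp63 stood at 704 and 469 CPM in B-27, 160 and 41.3 in Rspo, 113 and 178 in BMP2/4, 129 and 178 in Rspo+BMP2/4, and 780 and 181 with RARi. Both B-27 sums and the RARi sum of mouse 1, which holds 5 cells, stood well above the other sums of at least 5 cells. In atRA+PKCi, with 2 and 1 cells, Trp63 stood at 67.1 and 272 CPM and Barx2 at 26.8 and 45.3. Runx1 stood at 450 and 241 CPM in B-27, 204 and 234 in Rspo, 452 and 630 in BMP2/4, 531 and 781 in Rspo+BMP2/4, and 1010 and 425 with RARi. Its Rspo sums, of 5 and 6 cells, were the lowest of the sums of at least 5 cells in each mouse, close to B-27 in mouse 2. Foxc1 stood at 21.2 and 9.1 CPM in B-27 and at 14.6 and 11.7 in BMP2/4. Tbx1 stood at 26.5 and 22.8 CPM in B-27 and at 26.8 and 39.2 in BMP2/4. Nfatc1 was found in BMP2/4 and Rspo+BMP2/4 of mouse 1 (2.98 and 4.61 CPM) and with 1 UMI in each RARi sum.

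**Figure D5:**
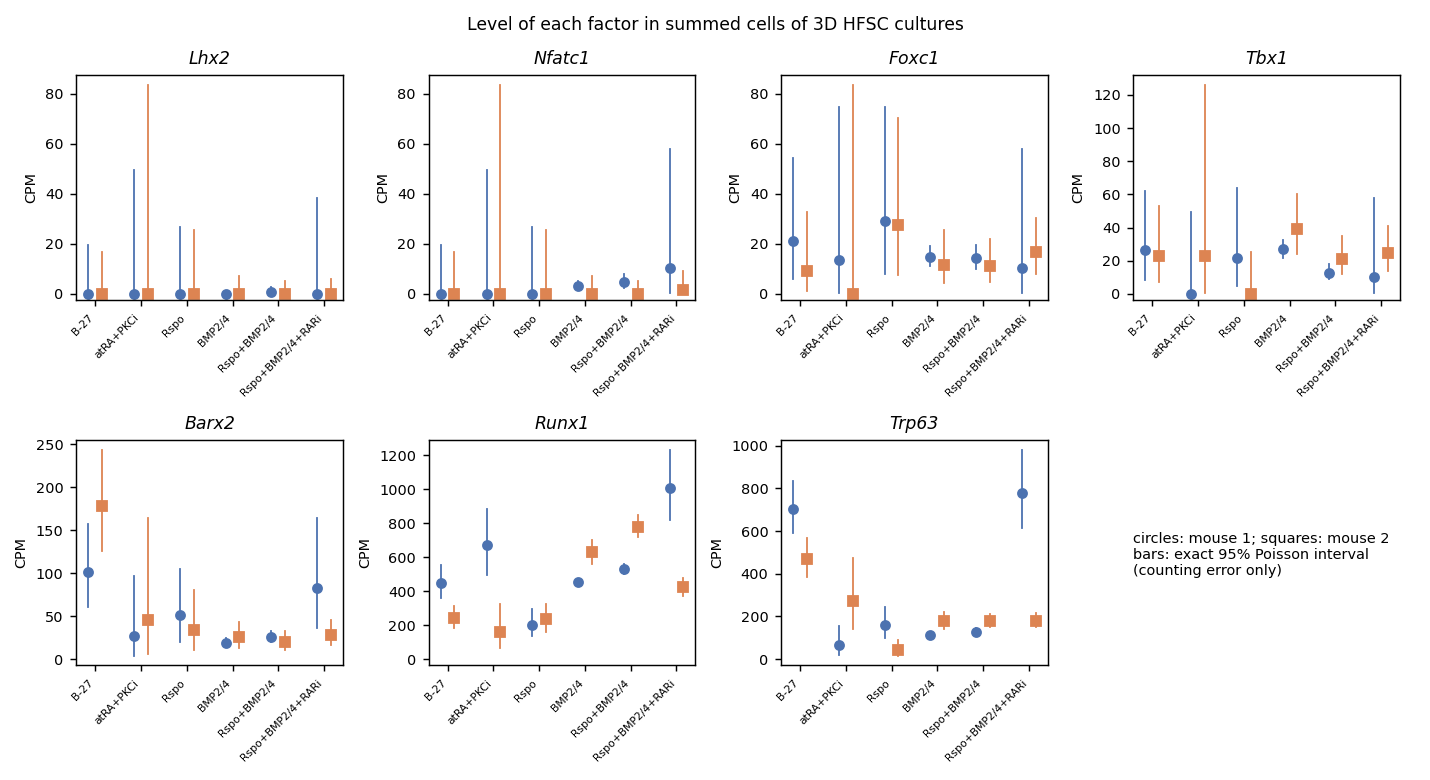
Level of each factor in CPM (linear axes) in summed cells of 3D cultures by medium, circles for mouse 1 and squares for mouse 2, with exact 95% Poisson intervals that cover counting error only. Barx2 is highest in the B-27 cultures of both mice (101 and 178 CPM), and the intervals of atRA+PKCi are wide since it gave 2 and 1 cells.

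Sums of at least 5 cells in both mice were compared with edgeR over 6265 genes, and called where the adjusted p was under 0.01 and the log2 fold change beyond 1 in either direction. Only Barx2, Foxc1, Runx1 and Trp63 passed the filter on low counts. Between BMP2/4 and B-27, where 5.71% of genes were called, 1 of the 4 was called, Barx2, which was lower with BMP2/4 (-2.6 as log2 fold change, adjusted p = 0.000823, standard error 0.47). This contrast covers atRA+PKCi as well as BMP2/4. Markers of state moved with it: all 4 tested genes of epidermal differentiation were called lower with BMP2/4 (Sbsn at -4.56, Dmkn at -2.8, Krt10 at -2.77 and Krtdap at -2.37, median -2.78 beside 0.01 over all genes), and Lgr6 was the 1 of 9 tested other genes of HFSCs to be called, as higher (4.02). Their part in the change of Barx2 was not tested. Trp63 differed by -1.92 (0.61, adjusted p = 0.0485), Runx1 by 0.77 (0.401) and Foxc1 by 0.04 (0.979), none of which passed. The call of Barx2 was lost without B-27 replicate 2 (-1.96, adjusted p = 0.0491) or without BMP2/4 replicate 1 (-2.41, 0.068) or 2 (-2.63, 0.016), and Trp63 passed without either RARi sum (-1.88 in both, adjusted p = 0.00238 and 0.00339). Between Rspo+BMP2/4 and BMP2/4, 0 genes were called by edgeR (0%), with 44 at an unadjusted p under 0.05 and 0 with DESeq2, and the members differed by 0.11 (Barx2), -0.12 (Foxc1), 0.23 (Runx1) and 0.05 (Trp63). With RARi added to Rspo+BMP2/4, 0 genes were called by edgeR (0%), with 232 at an unadjusted p under 0.05 and 0 with DESeq2. Trp63 differed by 1.27 (adjusted p = 0.959) and Barx2 by 0.63. Barx2 was lower in BMP2/4 cultures than in B-27 cultures, both serum-free, and higher in atRA+PKCi than in FBS in RNA-seq, and the tables were normalized separately, so the sizes of these changes were not compared.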

How the data were processed

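RNA-seq was read from estimated counts per gene, which the authors made with salmon 1.4.0 and tximport on mm10 and deposited without normalization. The authors also deposited a table of normalized counts, and ATAC-seq and CUT&RUN files, which were not used here. For single cells, the authors deposited whole UMI counts from Cell Ranger (7.0.1 in the submitters' processing notes), without the removal of free RNA and doublets that the methods describe. Of 27 samples, 8 RNA-seq libraries, 4 single cell matrices and the hashtag counts in the cultured matrices were used.

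Estimated counts were rounded and, after TMM scaling and filterByExpr, fitted with the quasi-likelihood test of edgeR 4.0.16 (R 4.3.3; Benjamini-Hochberg adjustment over all genes tested) as 4 group means over 8 libraries. The fit was tested on simulated data. Library totals differed by less than 1.5 times, and replicates differed by more than counting error (mean chi-square per gene 5.81 to 27.8). The labels give each mouse of a genotype a number that its cultures in both media share, and deviations of same-numbered cultures from their group means correlated at 0.0668 in wild-type and -0.0188 in the cKO over 15965 genes. The fit was made without a replicate block, which is an alternative. Intervals of log2 fold changes use the 4 residual degrees of freedom (5 in the cultures).

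Barcodes with under 500 genes, under 1000 UMIs or 10% or more of mitochondrial UMIs were removed. In vivo, Scrublet marked 861 and 474 doublets (5.96% and 3.41%), which were removed, and cells were clustered with scanpy 1.11.5 (2000 variable genes, 30 components, 15 neighbours, resolution 0.6, seed 11). Each cluster was named after its best scoring marker list, if the mean score reached 1, 3 or more markers were found in 10% of cells, and no competing list was better represented among the 10 leading genes. Clusters of few UMIs also needed a marker among these, and clusters led by milk protein genes stayed unnamed. This rule was set after the clusters were seen. HTODemux of Seurat 5.3.0 assigned hashtags (quantile 0.99). Culture UMIs were summed per mouse and medium where both mice had at least 5 cells (10 sums) and tested with edgeR. Figures were drawn with matplotlib 3.10.9.

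The 7 members and all gene lists were chosen with earlier results of these data known, so that their counts are descriptions. The text names all members, and from each list the called genes with the 3 largest and 3 smallest log2 fold changes in the wild-type comparison of media and those called by the interaction, and the 3 genes nearest to each member across clusters. One gene that this rule names is not reported here. The alternatives tried comprised DESeq2 1.42.0, all genes without a filter, other thresholds, leaving out each library or sum, a replicate block, no mitochondrial limit in the cultures, hashtags by at least 70% of at least 20 counts, a stricter cell filter (1000 or more genes, under 5% mitochondrial UMIs) and resolution 1.0.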

Additional observations from a re-analysis of the deposited data

Results flagged for a closer look

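The change with atRA+PKCi differed between wild-type and Rxra cKO libraries, by the interaction in edgeR at an adjusted p under 0.05, for 37 of the 76 tested genes among the members, Rxra and the lists (48.7%), against 24.6% of all tested genes. The lists were chosen with earlier results of these data known, and every value below is the log2 change in wild-type less that in the cKO. Of the members this was Foxc1 alone (0.47), and of their relatives and partners Runx2 (1.31), Nfat5 (0.99), Ppp3cb (0.4), Rcan1 (-1.03) and Foxc2 (2.48). Rxra itself was at -0.51, and its summed level rose with atRA+PKCi in the libraries labelled cKO.

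Among the other genes of HFSCs, Krt15 (5.0), Lgr6 (3.8), Cd34 (1.81), a surface marker of the bulge, Sfrp1 (1.74), Sox9 (0.51), which specifies HFSCs, and the forkhead gene Foxp1 (0.44) rose more, or fell less, in wild-type. Cd34 did not rise in wild-type (0.546 ± 0.102 CPM in FBS and 0.446 ± 0.0863 in atRA+PKCi; SD, n = 2). In the cKO it went from 2.35 ± 0.8 to 0.547 ± 0.0696. Bmp6 (-1.59), Fgf18 (-3.38) and Postn (-3.98) fell more in wild-type or moved the other way in the cKO. Among the basal genes that p63 is known to control, Krt5 (-0.84), Krt14 (-1.78), Perp (-0.99), Dst (-0.65), which anchors keratins to hemidesmosomes, Ripk4 (-0.83) and the cell cycle inhibitor Cdkn1a (-0.83) were on the negative side, and the Notch ligand Jag2 (0.49) and Igfbp3 (0.73) on the positive side.

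All 6 genes of epidermal differentiation were on the negative side: the keratins Krt1 (-8.61) and Krt10 (-6.11), Krtdap (-8.26), Lor (-3.81), which encodes a protein of the cornified envelope, Sbsn (-2.12) and Dmkn (-1.76). The size for Krt1 rests on a low level in wild-type atRA+PKCi, 0.336 ± 0.386 CPM (SD, n = 2). The proliferation genes Mki67 (1.23), Ccnb1 (1.17), Top2a (0.93), Cdk1 (0.82) and Mcm5 (0.66) were on the positive side. Of the markers of other cell types, the fibroblast marker Pdgfra was at -1.25 and the endothelial marker Pecam1 at -1.63. With 2 libraries per group no test for outliers was made.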

How the results depend on the processing

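Over single changes of members in RNA-seq, 318 of 348 alternatives kept direction and side of the threshold, 23 lost and 7 gained a call, and none reversed. In the cultures 164 of 171 did, with 3 lost and 4 gained. Requiring an adjusted p under 0.01 and a log2 fold change beyond 1 in either direction left 2 members called with medium in wild-type, 1 in the cKO, 1 with genotype in FBS, 3 in atRA+PKCi and 0 by the interaction. Over all genes it called 1381 higher and 1579 lower in wild-type in place of 4350 and 4249, 817 and 1041 with medium in the cKO (3319 and 3542), 1105 and 656 with genotype in FBS (3565 and 3275), 1406 and 675 in atRA+PKCi (3670 and 3225), and 440 and 694 by the interaction (1807 and 2117). Without a filter on low counts the interaction called 2 members. Leaving out each library, it called 0 to 2 (0 without wild-type atRA+PKCi replicate 1, Rxra cKO FBS replicate 1 or 2, or Rxra cKO atRA+PKCi replicate 1, and 2 without wild-type atRA+PKCi replicate 2), and the other counts were 4 to 5, 3 to 3, 3 to 3 and 3 to 4.

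For BMP2/4 against B-27, 2 members were called at an adjusted p under 0.05 with no minimum fold, 2 with hashtags by share, and 0 to 2 without a single sum. Over all genes that comparison called 61 (without BMP2/4 replicate 1) to 650 (adjusted p under 0.05 with no minimum fold), in place of 358. For the other culture comparisons 0 members were called throughout, and 8 and 7 genes were called without a filter on low counts, in place of 0. Between Rspo+BMP2/4 and BMP2/4 the count also moved from 0 without BMP2/4 replicate 1 or Rspo+BMP2/4 replicate 2, fits that leave 1 sum in a group. The atRA+PKCi cultures were limited by their 2 and 1 cells. In the cultures Lhx2 (2 and 0 UMIs over all media), Nfatc1 (24 and 1) and Tbx1 (141 and 56) did not pass the filter on low counts and were not tested.

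With the replicate block, Barx2 rose by 1.4 in wild-type, and all 21 RNA-seq and 15 culture results kept their call.

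At resolution 1.0, where 772 cells were outer root sheath-like, the class held Lhx2 at 93.9 CPM, Nfatc1 at 3.75, Tbx1 at 137, Barx2 at 760 and Trp63 at 1580. The cause was not tested. The stricter cell filter gave Lhx2 133 and Tbx1 228 CPM. In both, 5 of 7 members were highest in a keratinocyte class.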
